A study of Mus musculus with 5 samples.

Results

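The fatty acid elongases Elovl1, Elovl2, Elovl5 and Elovl6 were followed through fasting in mouse hepatocytes. They were chosen by name, as 4 of the 64 genes of a targeted single-cell panel, and were set against each other by substrate. Elovl6 and Elovl1 were taken as the saturated chain elongases, and Elovl5 and Elovl2 as the polyunsaturated chain elongases. The panel held 7 Elovl genes in all. Of the others, Elovl4 had at most 1 UMI in a library, Elovl7 had at most 67 UMIs in a library, and Elovl3 is described beside the other genes of fatty acid synthesis.

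Total hepatocytes were isolated from livers of male C57BL/6J mice of WT genotype on a normal chow (lab diet 5053). All mice had first been trained for 3 days to a cycle of 16 h without food and 8 h with it, and all drank water with 20% sucrose while fed on the last day. The fed library (0 h) was taken at clock hour 13, after 4 h of feeding, and the fasted libraries after 8, 16, 24 and 30 h without food and sucrose water, at clock hours 21, 5, 13 and 19. There was 1 library per time point, so that no value has a replicate error and no test was made. The sources used here do not give the age or number of mice behind a library. Hours of fasting and clock hour cannot be told apart, except that the fed and the 24 h library shared the clock hour.

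Elongases carry out the first, condensing step of the cycle that lengthens a fatty acid by a pair of carbons in the endoplasmic reticulum, with malonyl-CoA as the donor. ELOVL6 extends palmitate, the product of fatty acid synthase, to stearate, and its gene is a known target of the lipogenic factor SREBP-1c in liver. ELOVL1 makes very long saturated and monounsaturated chains that enter sphingolipids. ELOVL5 and ELOVL2 work in turn with the desaturases FADS2 and FADS1, ELOVL5 on the earlier intermediates from linoleic and alpha-linolenic acid (and also on monounsaturated palmitoleate) and ELOVL2 on the later ones towards docosahexaenoic acid.

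In GRCm38 (GENCODE release M21), Elovl6 (ENSMUSG00000041220) lies on chromosome 3 from 129532355 to 129638495, plus strand, and Elovl1 (ENSMUSG00000006390) on chromosome 4 from 118428093 to 118432953, plus strand. Elovl5 (ENSMUSG00000032349) lies on chromosome 9 from 77917364 to 77984519, plus strand, and Elovl2 (ENSMUSG00000021364) on chromosome 13 from 41182381 to 41220405, minus strand. All 4 are protein-coding, and no exon of another gene overlaps theirs on the same strand. On the opposite strand an exon of Cdc20 overlaps Elovl1 and one of Gm35986 overlaps Elovl6. The sources used here do not say whether counting used strand.

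Elovl6 and Elovl5 moved furthest apart with fasting, so the bases upstream of their start sites are shown, from RefSeq on GRCm38.p6, up to the base before the first annotated start. The windows are chr3:129532136-129532354 and chr9:77917115-77917363, both on the plus strand. Capitals mark matches to 5 motifs searched on both strands: the E-box CACGTG, the CCAAT box (CCAAT), the GC box (GGGCGG), the sterol regulatory element TCACNCCAC and the cyclic AMP response element TGACGTCA.
Elovl6: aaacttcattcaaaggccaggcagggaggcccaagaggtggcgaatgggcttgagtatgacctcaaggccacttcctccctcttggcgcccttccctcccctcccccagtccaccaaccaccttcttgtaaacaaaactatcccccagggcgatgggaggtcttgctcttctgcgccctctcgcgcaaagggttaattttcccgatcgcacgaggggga
Elovl5: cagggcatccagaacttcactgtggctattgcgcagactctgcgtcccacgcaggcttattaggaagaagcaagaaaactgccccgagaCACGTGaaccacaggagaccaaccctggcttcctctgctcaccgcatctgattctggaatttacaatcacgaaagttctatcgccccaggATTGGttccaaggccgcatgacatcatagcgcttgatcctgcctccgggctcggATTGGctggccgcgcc
The Elovl6 window held no match, which says only that these letters are not in it. The Elovl5 window held CACGTG at 161 bases before its start and CCAAT, on the opposite strand, at 71 and 17 bases before it. Of the 32851 promoter windows of 250 upstream bases in the RefSeq table, 6.02% held CACGTG, 33.8% CCAAT, 32.7% GGGCGG, 1.05% TCACNCCAC and 1.55% TGACGTCA. All 4 elongases were matched in that table, with 6 windows. The windows of Elovl1 held 5 and 2 copies of GGGCGG, and the first of them also a CCAAT that overlaps a GC box. Those of Elovl2 held 5 copies of GGGCGG and none.

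The libraries held 7208 to 12153 barcodes and between 3979629 (8 h) and 11288725 (30 h) panel UMIs, and Alb, a hepatocyte marker, made up 69.4% to 71.8% of them. The 8 h library stood apart: its median was 219 UMIs per barcode, against 651 to 1202.5 in the others, and 47.8% of its barcodes had under 200 UMIs. Of 18 marker genes listed for other liver cells, 6 were on the panel (Cdh5, Mrc1, Cd68, Ptprc, Pdgfra and Pdgfrb), none of them at 0 in any library. Together they stood at 76.2 CPM (UMIs per 1000000 panel UMIs) in the fed library, 220.4 after 8 h, 34.4 after 16 h, 43.2 after 24 h and 29.7 after 30 h. In barcodes with 300 or more UMIs their sum after 8 h was 55.2 CPM, against 22.1 to 40.8 in the others. Their part in the results was not tested. Across libraries, 238 barcode sequences occurred in 2 libraries each (476 barcodes in all). All intervals given are at 95% and cover counting error only.

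Elovl6 was lower at every step of the fast. It stood at 7911 CPM in the fed library (7847 to 7974), 1708 after 8 h (1667 to 1749), 576 after 16 h (557 to 595), 347 after 24 h (336 to 359) and 219.6 after 30 h (211 to 228). No interval overlapped another, and the levels fell in the order of hours of fasting. Against 0 h the log2 ratio was -2.21 after 8 h, -3.78 after 16 h, -4.51 after 24 h and -5.17 after 30 h, or 4.63-fold, 13.7-fold, 22.8-fold and 36.0-fold lower. From each library to the next the log2 difference was -2.21, -1.57, -0.73 and -0.66, so that most of the difference lay in the first 16 h. After 24 h, the time that shares its clock hour with 0 h, Elovl6 was the second lowest of 54 panel genes by ratio to 0 h, and after 30 h it was the lowest. In UMIs per barcode, with no scaling to the library, Elovl6 went from 8.29 in the fed library to 0.559, 0.375, 0.423 and 0.246. On that scale the value after 24 h was above that after 16 h, whereas in CPM it was below.

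Elovl1, the other saturated chain elongase, was also lower in every fasted library, but by much less. It stood at 572 CPM in the fed library (555 to 589), 337 after 8 h (319 to 355), 283 after 16 h (269 to 296), 291 after 24 h (280.3 to 301) and 304 after 30 h (294 to 314). The fed library was the highest and the 8 h library lay above the rest, while the intervals of 16 h and 24 h, and those of 24 h and 30 h, overlapped. The log2 ratio of Elovl1 to 0 h was -0.76, -1.02, -0.98 and -0.91 in time order. In CPM its difference was no larger after 24 h or 30 h than after 16 h. The place of the 8 h library rests on the scale: by median-of-ratios scaling the log2 ratios of Elovl1 were -1.04, -0.89, -0.82 and -0.76, and in UMIs per barcode -2.44, -1.70, -0.76 and -0.82, so that 8 h was then the lowest. Elovl1 was below the fed library at all 4 times on each of these scales. Elovl6 kept moving away from it, and the log2 ratio of Elovl6 to Elovl1 UMIs differed from that in the fed library by -1.45 after 8 h, -2.76 after 16 h, -3.53 after 24 h and -4.26 after 30 h (-4.35 to -4.17).

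Elovl5 had its highest level after 8 h. It stood at 2596 CPM in the fed library (2559 to 2632), 7473 after 8 h (7388 to 7558), 4490.2 after 16 h (4437 to 4543), 3122 after 24 h (3088 to 3156) and 3687 after 30 h (3652 to 3723). All 4 fasted libraries lay above the fed library with no overlap of intervals. The log2 ratio of Elovl5 to 0 h was 1.53 after 8 h (2.88-fold higher), 0.79 after 16 h, 0.27 after 24 h and 0.51 after 30 h. It was the fifth highest of 54 panel genes by that ratio after 8 h. The 8 h library is the shallow one. In its 5159 barcodes with 300 or more UMIs the log2 ratio was 1.52, but in UMIs per barcode it was -0.15, where the median of the 54 genes was -1.65. Relative to the panel median, Elovl5 stood 1.50 above it after 8 h on the CPM scale. Scales that divide a whole library by a common factor, UMIs per barcode among them, cannot change this difference. As the mean of per-barcode CPM, which can change it, the difference was 1.38.

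On the CPM scale Elovl2 stayed nearest to its level in the fed library over the 4 fasted libraries, though not in UMIs per barcode. It stood at 4356 CPM in the fed library (4309 to 4403), 3023 after 8 h (2969 to 3078), 5232 after 16 h (5175 to 5290), 5069 after 24 h (5026 to 5112) and 5278 after 30 h (5236 to 5321). The 8 h library was the lowest, the fed library came next, and the intervals of 16 h and 30 h, the highest, overlapped. The log2 ratio of Elovl2 to 0 h was -0.53 after 8 h, 0.26 after 16 h, 0.22 after 24 h and 0.28 after 30 h. In UMIs per barcode the ratio of Elovl2 after 8 h was -2.20, where the panel median was -1.65, and after 16 h it had the other sign (-0.42), where the panel median was -0.78. After 8 h the polyunsaturated chain elongases therefore stood on opposite sides of the fed level in CPM, and the log2 ratio of Elovl5 to Elovl2 UMIs was 2.05 above that in the fed library (2.01 to 2.09). By 24 h that difference was 0.05 (0.02 to 0.08), and after 30 h 0.23.

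**Figure D1:**
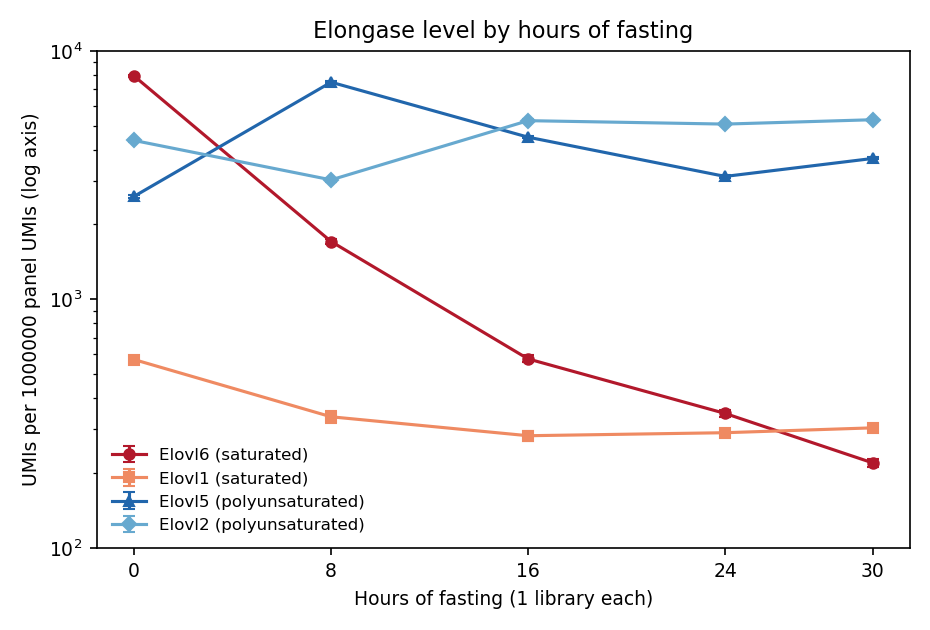
Level of the 4 elongases in UMIs per 1000000 panel UMIs (log axis) by hours of fasting, with exact Poisson 95% intervals (counting error only) and 1 library per point. Elovl6 runs from 7911 down to 219.6, Elovl1 flattens after 16 h, Elovl5 peaks after 8 h (7473), where UMIs per barcode put it below 0 h, and Elovl2 has its lowest value after 8 h. Heights of different genes are not comparable, since capture per gene was not measured.

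Counted at 2-fold on the CPM scale, 1 of 4 elongases was lower than 0 h after 8 h (Elovl6), against 13% of the 54 panel genes that reached 100 UMIs in both libraries, and 1 was higher (Elovl5), against 16.7%. After 16 h, 2 of 4 were lower (Elovl6, and Elovl1 with an interval of -1.10 to -0.94 around the limit of -1), against 25% of 52 genes, and 0 were higher, against 11.5%. After 24 h, 1 was lower, against 22.2% of 54 genes, and 0 were higher, against 9.26%. After 30 h, 1 was lower, against 25.9% of 54 genes, and 0 were higher, against 16.7%. With 4 genes these shares do not set the elongases apart from the panel. The median log2 ratio of the 4 to 0 h was -0.65, -0.38, -0.38 and -0.32, against panel medians of 0.03, -0.09, -0.12 and -0.02. These 4 comparisons share the fed library.

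**Figure D2:**
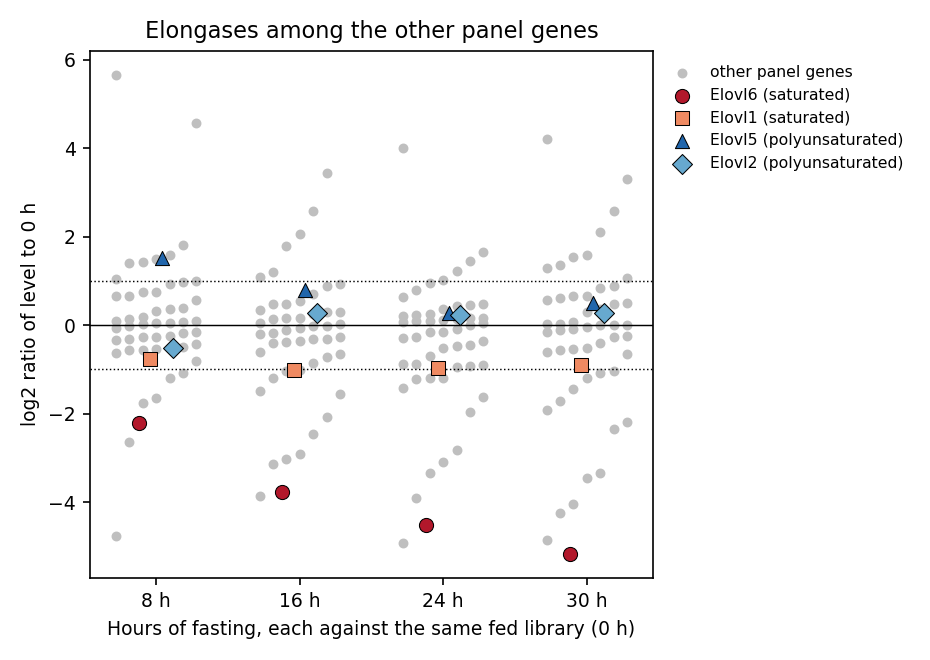
Log2 ratio of each panel gene's level to the fed library at each fasting time, for genes that reached 100 UMIs in both (grey, 1 point per gene, spread sideways only to be seen). Dotted lines mark 2-fold. Elovl6 is at or near the bottom of the panel at every time, while Elovl1, Elovl2 and Elovl5 lie within or near the 2-fold lines, apart from Elovl5 after 8 h (1.53; -0.15 by UMIs per barcode).

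The contrast between the chain classes needs no library scaling, since the genes compared share a library. Summed UMIs of Elovl1 and Elovl6 were 64043 in the fed library, 8136 after 8 h, 5282 after 16 h, 6655 after 24 h and 5910 after 30 h. Those of Elovl2 and Elovl5 were 52480, 41769, 59842, 85443 and 101206. The log2 ratio of the first sum to the second was 0.29 in the fed library, -2.36 after 8 h, -3.50 after 16 h, -3.68 after 24 h and -4.10 after 30 h. It differed from the fed library by -2.65 after 8 h (-2.69 to -2.61), -3.79 after 16 h (-3.83 to -3.75), -3.97 after 24 h (-4.01 to -3.93) and -4.39 after 30 h (-4.43 to -4.34), that is 6.27-fold, 13.8-fold, 15.7-fold and 20.9-fold. Elovl6 supplied 59724 of the 64043 UMIs of the saturated class in the fed library, so that the contrast is mostly that of Elovl6. The ratio of Elovl6 to Elovl5 differed from 0 h by -3.74, -4.57, -4.78 and -5.68, and that of Elovl6 to Elovl2 by -1.68, -4.05, -4.73 and -5.45. The ratio of Elovl1 to Elovl5 differed from 0 h by -2.29, -1.81, -1.24 and -1.42, and that of Elovl1 to Elovl2 by -0.24, -1.28, -1.20 and -1.19. Elovl6 and Elovl1 thus each lost ground to both Elovl5 and Elovl2 in all 4 fasted libraries, Elovl6 by more than Elovl1 throughout. Elovl3, which also extends saturated chains, was not in the first sum. It had 591 UMIs in the fed library and 15762, 5187, 871 and 16307 in the fasted libraries in time order. The contrast therefore covers the 4 genes named and not all saturated chain elongases of the panel.

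The panel held 9 of the 20 listed genes of fatty acid synthesis and desaturation other than the 4 elongases, 7 of them with at least 100 UMIs in each library compared. At each fasting time 3 of these 7 were over 2-fold lower than 0 h: Acly (ATP citrate lyase), Acaca (acetyl-CoA carboxylase, which makes malonyl-CoA) and Fasn (fatty acid synthase). Elovl3, an elongase of saturated and monounsaturated chains, was over 2-fold higher after 8 h, 16 h and 30 h. Its level was 78.3 CPM in the fed library, 3961 after 8 h, 843 after 16 h, 83.5 after 24 h and 1445 after 30 h. The libraries at the shared clock hour, 0 h and 24 h, were its lowest, and its log2 ratio between them was 0.09. Scd1, the desaturase that makes monounsaturated chains, and the polyunsaturated desaturases Fads1 and Fads2 stayed within 2-fold of 0 h at all 4 times, with log2 ratios of -0.40 to 0.36 for Scd1, -0.28 to 0.14 for Fads1 and -0.43 to 0.46 for Fads2. The median log2 ratio of the 7 genes to 0 h was -0.43, -0.18, 0.09 and -0.40.

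Of 13 listed regulators of lipogenesis, 5 were on the panel. Srebf1, which encodes SREBP-1, was over 2-fold lower at all 4 times, with its lowest level after 8 h (167 CPM, against 4538 in the fed library) and 606, 300.3 and 237 CPM afterwards. Elovl6 did not share that low point: its level after 8 h was its highest of the fast. Mlxipl, which encodes the carbohydrate-response factor ChREBP, was over 2-fold lower after 16 h, 24 h and 30 h, and Nr0b2, which encodes the repressor SHP, was over 2-fold higher after 16 h and 30 h. Nr1h3 (LXR alpha) and Nr1h4 (FXR) stayed within 2-fold. Of 6 listed genes of triglyceride synthesis, 3 were on the panel. Gpam, which encodes the acyltransferase that starts the pathway, was over 2-fold lower at all 4 times. Of the acyltransferases of its last step, Dgat2 was over 2-fold lower after 16 h and 30 h, and Dgat1 at none.

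The nearest panel genes to each elongase were taken as the 3 with the smallest root mean square difference in log2 ratio to 0 h over the 4 fasted libraries, among 52 genes. For Elovl6 they were Fasn (0.34), Acly (0.92) and Acaca (1.44), so that only Fasn ran close to it. For Elovl2 they were Rxra, a nuclear receptor gene (0.25), and the desaturases Fads2 (0.29) and Fads1 (0.34). For Elovl1 they were Dgat2 (0.15), beta-actin (Actb, 0.27) and the hepcidin gene Hamp2 (0.48). Elovl5 had the gluconeogenic G6pc (0.31) and the bile acid synthesis genes Cyp27a1 (0.52) and Hsd3b7 (0.53). None of the 4 elongases was among the nearest 3 of another by time. These are descriptions over 4 ratios that share the fed library.

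Liver zone was read from the ratio of Cyp2e1 UMIs, rich near the central vein, to Cyp2f2 UMIs, rich near the portal vein. Barcodes of each library were ranked by it and cut into 5 equal bins, so that bins hold equal shares of barcodes, not the same stretch of tissue in each library. The Cyp2e1-rich bin began at a log2 ratio of -0.28 in the fed library and at 2 to 3.64 in the fasted ones. Its Cyp2f2 level, on the scale given next, was 10123 in the fed library and 2187 to 4989 in the fasted ones. Zone changes between fed and fasted libraries therefore compare unlike bins. Levels along the axis are per 1000000 panel UMIs other than those of these 2 genes. Along it the pericentral genes Glul, Gulo, Cyp27a1 and Cyp7a1 were higher at the Cyp2e1-rich end in all 5 libraries, and the periportal genes Hsd17b13, Alb and Sds were lower. The gluconeogenic genes Pck1 and G6pc, also listed as periportal, were lower there in the fed library only (-0.35 and -0.36, log2). In the fasted libraries they were higher at the Cyp2e1-rich end on this scale, by 0.04 to 0.45 for Pck1 and 0.14 to 0.36 for G6pc. The median panel gene was higher there by 0.76 to 1.04 in the fasted libraries and by 0.76 in the fed library. Relative to that median, Pck1 and G6pc were thus lower at the Cyp2e1-rich end in all 5 libraries. Depth differed along it as well. After 8 h the median UMIs per barcode were 587, 326, 117, 116 and 250 from the Cyp2f2-rich to the Cyp2e1-rich bin. Alb took 72.6% of panel UMIs in the Cyp2f2-rich bin in the fed library and 53.2% in the Cyp2e1-rich bin. Other genes therefore took a larger share there. Marker genes of other liver cells were uneven along the axis too. In the fed library the Cyp2e1-rich bin held 59 Ptprc, 82 Mrc1 and 69 Cdh5 UMIs, against 3, 18 and 26 in the Cyp2f2-rich bin. After 8 h Mrc1 had 22, 56, 106, 112 and 32 UMIs in bin order. After 24 h its end bins were near equal (23 and 22). The part of such cells in the zone values was not tested.

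In the fed library the level of Elovl6 was 7493, 7583, 7367, 8129 and 12078 from the Cyp2f2-rich to the Cyp2e1-rich bin. After 8 h it was 1090, 1628, 2092, 2480 and 2658, after 16 h 572, 549.9, 521, 623 and 834, and after 24 h 312, 313, 332, 423 and 544. After 30 h it was 243, 239, 239, 209 and 207. In the fed library and after 24 h, and less so after 16 h, the last bin stood above the others. After 8 h the level climbed along the whole axis, and after 30 h the last 2 bins lay below the first 3, though the interval of every bin overlapped that of the first. The log2 ratio of the Cyp2e1-rich to the Cyp2f2-rich bin was 0.69 in the fed library, 1.29 after 8 h, 0.54 after 16 h, 0.80 after 24 h and -0.23 after 30 h (-0.44 to -0.02). The value after 30 h stayed below 0 in 8 of 9 alternatives, but its interval did not always stay clear of 0. It was -0.11 (-0.41 to 0.18) with 10 bins and 0.15 (-0.24 to 0.54) in barcodes thinned to 300 UMIs, where the fed library stood at 0.63. Without Alb in the denominator these became -0.02, 0.50, -0.37, -0.08 and -0.98. Relative to the median panel gene at the same time, Elovl6 stood at -0.07, 0.53, -0.50, -0.16 and -1.02, a difference that no common scaling can move. With all UMIs used, only 4 of 48 genes had a lower ratio between the ends after 30 h. Neither this rank nor the difference from the median was computed in thinned barcodes.

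The other 3 elongases were higher at the Cyp2e1-rich end at all 5 times on this scale, by 0.76 to 1.01 (log2) for Elovl1, 0.35 to 0.75 for Elovl2 and 0.43 to 0.89 for Elovl5. Without Alb in the denominator Elovl2 and Elovl5 were lower there at all 5 times, and Elovl1 was lower after 24 h. The intervals of Elovl5 after 16 h and of Elovl1 after 24 h held 0 then. Relative to the median panel gene Elovl2 stood between -0.40 and -0.26 and Elovl5 between -0.36 and -0.15, below it at every time, while Elovl1 lay between -0.19 and 0.20. With an interval clear of 0, 4 of 4 elongases were higher at the Cyp2e1-rich end in the fed library, against 84.8% of 46 panel genes, and 0 were lower, against 13%. After 8 h it was 4 higher (87.2% of 47 genes) and 0 lower (10.6%), after 16 h 4 (88.9% of 45) and 0 (6.67%), and after 24 h 4 (87.2% of 47) and 0 (8.51%). After 30 h 3 were higher (81.2% of 48) and 1, Elovl6, was lower (10.4%), which became 0 with 10 bins and in thinned barcodes. The calls at the higher end follow the direction of most of the panel.

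**Figure D3:**
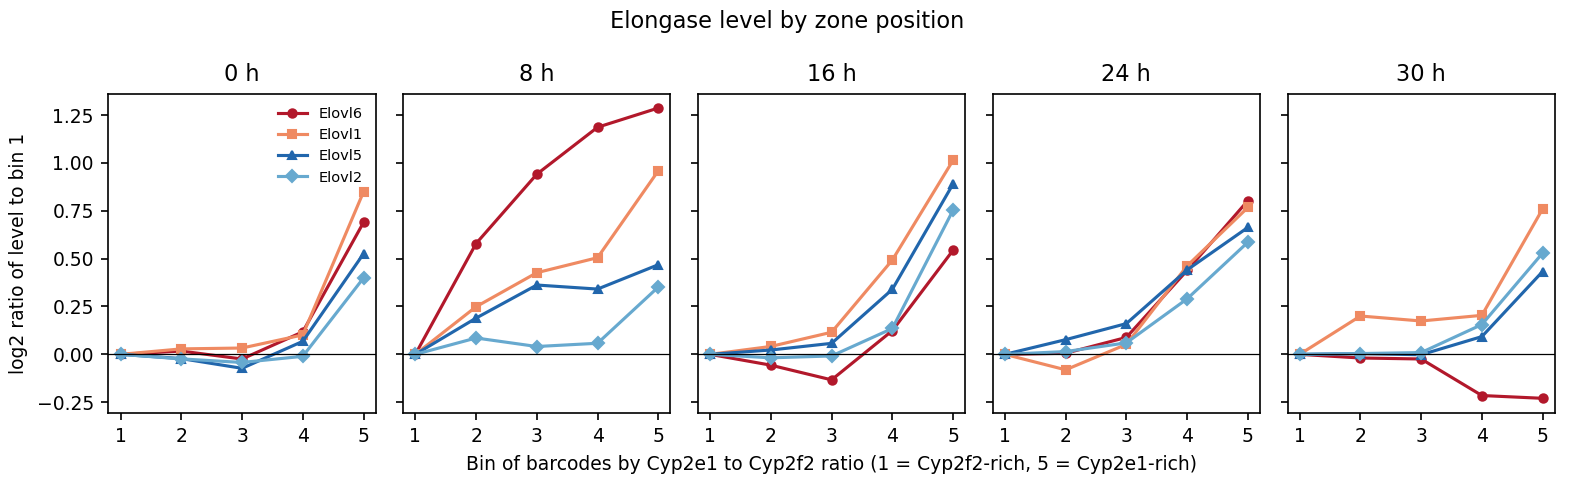
Log2 ratio of each elongase's level to its own Cyp2f2-rich bin, along 5 bins of barcodes ranked by Cyp2e1 to Cyp2f2, in each library (levels per 1000000 panel UMIs other than these 2 genes). Elovl6 climbs most after 8 h (1.29 in the last bin) and ends at -0.23 after 30 h (0.15 in barcodes thinned to 300 UMIs), while the other 3 end above 0 in every library. Without Alb in the denominator Elovl2 and Elovl5 end below 0 in every library, Elovl6 at all times but 8 h, and Elovl1 after 24 h. Not all of these have counting intervals clear of 0.

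Ratios between elongases are free of the denominator. Between the ends of the axis, the log2 ratio of Elovl6 to Elovl2 was higher at the Cyp2e1-rich end by 0.29 in the fed library (0.23 to 0.35), 0.93 after 8 h (0.81 to 1.06) and 0.22 after 24 h (0.07 to 0.37). It differed by -0.21 after 16 h (-0.37 to -0.05) and by -0.76 after 30 h (-0.97 to -0.55). Elovl6 to Elovl5 gave 0.16, 0.82, -0.35, 0.14 and -0.66 in time order, and only the value after 24 h (-0.01 to 0.29) had an interval that held 0. Elovl6 to Elovl1 gave -0.16, 0.33, -0.47, 0.04 and -0.99. By all 3 ratios, with all UMIs used, the value after 8 h was the highest and that after 30 h the lowest. This order did not hold for every ratio when depth was equalised. When barcodes of 300 or more UMIs were thinned to 300 UMIs each, the values after 30 h came down to -0.37 for Elovl2 (-0.75 to 0.02), -0.25 for Elovl5 (-0.63 to 0.14) and -0.53 for Elovl1, and Elovl6 to Elovl1 after 8 h became -0.02 (-0.46 to 0.41), below its 0.09 after 24 h. Elovl6 to Elovl5 was then -0.32 after 16 h, below its value after 30 h. Both polyunsaturated chain ratios were still highest after 8 h, at 0.84 for Elovl2 and 0.89 for Elovl5. With every barcode weighted equally but not thinned, the values after 30 h were -0.77, -0.68 and -1.09.

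Elovl5 to Elovl2 differed little between the ends: 0.13 in the fed library, 0.12 after 8 h (-0.05 in thinned barcodes), 0.14 after 16 h, 0.08 after 24 h and -0.10 after 30 h. The difference for Elovl1 was above 0 against both polyunsaturated chain elongases at all 5 times. Against Elovl2 it gave 0.45, 0.61, 0.26, 0.18 and 0.23 in time order, and against Elovl5 0.32, 0.49, 0.12, 0.10 and 0.33, where the intervals after 16 h and 24 h held 0. Elovl5 and Elovl2 were also each other's nearest gene by zone position, with a root mean square difference of 0.11 over the 5 libraries among 50 genes. The nearest to Elovl6 were Fasn (0.36), Srebf1 (0.37) and the pyruvate kinase gene Pklr (0.37), and the nearest to Elovl1 were Scd1 (0.12) and the bile acid genes Akr1d1 (0.13) and Baat (0.15). For the class contrast of Elovl1 and Elovl6 over Elovl2 and Elovl5, the difference between the ends was 0.25 in the fed library (0.20 to 0.31), 0.79 after 8 h (0.70 to 0.89), -0.12 after 16 h (-0.24 to 0.01), 0.17 after 24 h (0.06 to 0.28) and -0.11 after 30 h (-0.24 to 0.01). From 0 h it changed by 0.54 after 8 h (0.43 to 0.65), -0.37 after 16 h (-0.51 to -0.23), -0.08 after 24 h (-0.21 to 0.04) and -0.37 after 30 h (-0.50 to -0.23). Only the change after 24 h had an interval that held 0. In barcodes thinned to 300 UMIs that change was 0.11, and the change after 30 h was -0.20. Whether clock hour plays a part was not tested. The make-up of the saturated class differs between these libraries, with Elovl6 at 59724 of 64043 UMIs in the fed library and 2479 of 5910 after 30 h. After 30 h its members stood on opposite sides of 0 against both Elovl2 and Elovl5, so that the class value describes neither of them.

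**Figure D4:**
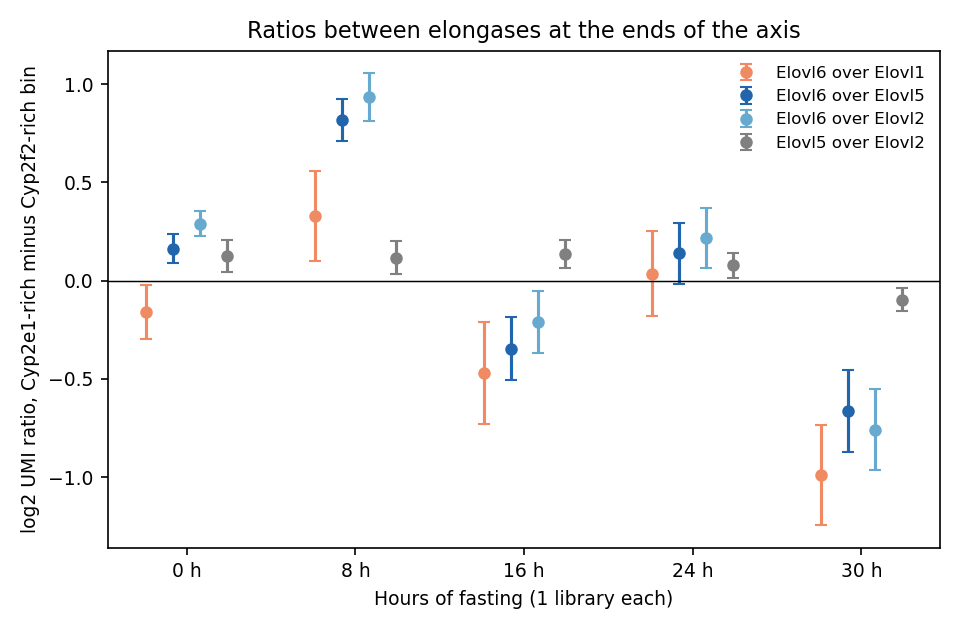
Log2 UMI ratio of a pair of elongases in the Cyp2e1-rich bin minus that in the Cyp2f2-rich bin, per library, with normal 95% intervals from the counts (counting error only). Ratios of Elovl6 to Elovl5 and Elovl2 are above 0 in the fed library and after 8 h and 24 h, and below it after 16 h and 30 h, while Elovl5 to Elovl2 stays between -0.10 and 0.14. The interval of Elovl6 to Elovl5 after 24 h holds 0. In barcodes thinned to 300 UMIs, Elovl6 after 30 h is at -0.25 to Elovl5 and -0.37 to Elovl2, with intervals that hold 0.

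Within each bin, Elovl6 was lower than in the bin of the same rank in the fed library at every fasting time. Its log2 ratio to 0 h ran from -2.78 in the Cyp2f2-rich bin to -1.71 in the fourth bin after 8 h, lay between -3.86 and -3.71 after 16 h and between -4.60 and -4.27 after 24 h, and ran from -4.95 to -5.87 after 30 h, lowest in the Cyp2e1-rich bin. The difference between the end bins was 0.60 after 8 h (0.49 to 0.70), -0.15 after 16 h (-0.30 to 0.01), 0.11 after 24 h (-0.04 to 0.26) and -0.92 after 30 h (-1.13 to -0.71). The size of the value after 30 h differs between settings. It rests on the ratio between the ends after 30 h, which was -0.23 with all UMIs and 0.15 in barcodes thinned to 300 UMIs. Thinning also left out barcodes under 300 UMIs and ranked the rest anew, so the part of depth alone was not tested. Elovl5 after 8 h was higher than in the fed library in all 5 bins, by 1.32 to 1.81 (log2). Elovl1 was lower in all 5 bins at all 4 times (-1.14 to -0.57). For Elovl2 the range was -0.63 to -0.47 after 8 h and 0.13 to 0.53 at the later times. The direction of each gene's change with fasting on this scale was thus shared by all bins.

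Per barcode, each thinned at random to 200 panel UMIs, Elovl6 UMIs were found in 73.4% of barcodes in the fed library, 27.0% after 8 h, 10.4% after 16 h, 6.37% after 24 h and 4.01% after 30 h. Before thinning the shares were 96.9%, 34.0%, 28.8%, 30.9% and 20.2%, with median depths of 1033, 219, 651, 1202.5 and 1149 UMIs. In the fed library, 21.9% of thinned barcodes held 3 or more Elovl6 UMIs, and after 30 h none did and 3.87% held exactly 1. The thinned share for Elovl5 was 39.9%, 72.4%, 57.1%, 46.6% and 51.1%, for Elovl2 58.0%, 45.5%, 63.4%, 63.3% and 65.1%, and for Elovl1 11.1%, 6.89%, 5.78%, 6.10% and 6.17%. Shallower barcodes left out numbered 52, 5807, 522, 4 and 26, so the values after 8 h describe the deeper 6346 of 12153 barcodes. Barcodes with 3 or more UMIs of genes of other liver cells, set beside them although such cells may express elongases too, numbered 25, 5, 1, 14 and 15 after this step. Their median depths were 277, 234, 863, 288 and 914 UMIs, and 20 of 25, 2 of 5, 0 of 1, 0 of 14 and 1 of 15 had an Elovl6 UMI. Alb took 53.2% to 81.9% of their UMIs, so they cannot set a background, and the shares are not read as shares of expressing cells. Fewer cells with the transcript and fewer copies per cell cannot be told apart at these depths.

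**Figure D5:**
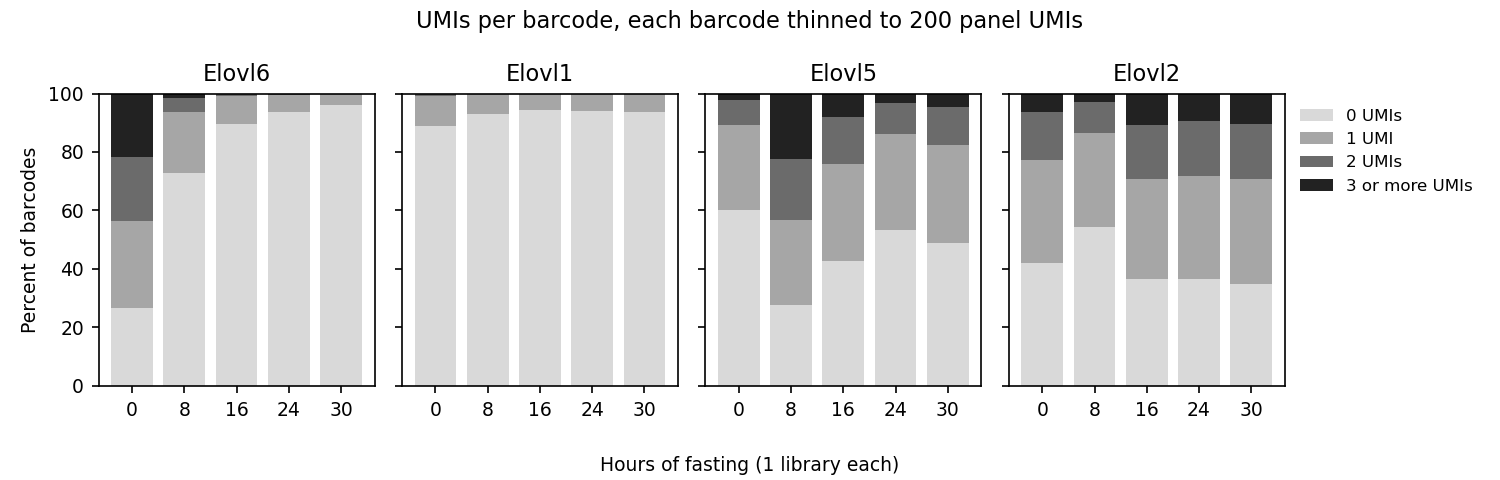
Percent of barcodes with 0, 1, 2 and 3 or more UMIs of each elongase after every barcode was thinned to 200 panel UMIs, by hours of fasting (1 library each). Barcodes without an Elovl6 UMI make up 26.6% in the fed library and 96.0% after 30 h, while the bars of Elovl1 and Elovl2 differ little among 16 h, 24 h and 30 h.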

How the data were processed

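UMIs of 64 panel genes were measured in hepatocytes of 5 libraries, 1 per time point. The deposited matrix holds raw UMI counts of 47473 barcodes. Per the file headers it came from Cell Ranger 6.0.1, and per the submitters' processing notes from mm10. Libraries were 10x Chromium 3' libraries enriched by hybrid capture, per the labels' protocols. The sources used here do not say how barcodes were called as cells. Every barcode was used, with its library from the deposited barcode table. No doublet caller was run on a panel of this size, so the deepest 5% of barcodes were left out as an alternative.

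UMIs were summed per library and gene and divided by panel UMIs (CPM). Intervals were exact Poisson for CPM, exact conditional binomial for log2 ratios, normal from the counts for differences of log2 ratios, and Clopper-Pearson for shares. Barcodes were ranked by log2((Cyp2e1 + 1)/(Cyp2f2 + 1)), ties in seeded random order, for zone position. Ratios over the panel needed at least 100 UMIs in both libraries or both bins. With 1 library per group no test was possible. The genes named were the 4 elongases, the panel genes of 3 pathway lists and the 3 genes nearest to each elongase. The members and lists were chosen with earlier results of these data known. Alternatives were other denominators (without Alb, UMIs per barcode, median-of-ratios, all panel UMIs), barcodes with 300 or more UMIs, per-barcode means, 10 bins in place of 5, a pseudocount of 0.1 and other thinning depths. Python 3.11.15, NumPy 2.4.6, SciPy 1.17.1 and matplotlib 3.10.9 were used. The ratios by time and the zone ratio of Elovl6 were tried on simulated counts, in which zone position did not vary with depth. The other steps were not tried on simulated counts.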

Additional observations from a re-analysis of the deposited data

Results flagged for a closer look

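In 7 cases a difference between the ends of the zone axis had the opposite sign to that of the fed library, with both counting intervals clear of 0. Each time point is a single library, so none of these differences between times was tested. The log2 ratio of Elovl6 between the Cyp2e1-rich and the Cyp2f2-rich bin was -0.23 after 30 h against 0.69 in the fed library. In barcodes thinned to 300 UMIs it was 0.15 after 30 h, of the same sign as the fed library. Elovl6 over Elovl1 differed between the ends by 0.33 after 8 h against -0.16 in the fed library. Thinned, the value after 8 h was -0.02, and the interval of the fed value held 0 then (-0.41 to 0.09), in barcodes with 300 or more UMIs, without the deepest 5% of barcodes, with 10 bins and with a pseudocount of 0.1. Elovl6 over Elovl2 differed by -0.21 after 16 h and by -0.76 after 30 h, against 0.29 in the fed library. Thinned, these were -0.14 and -0.37, both with intervals that held 0, against 0.30 in the fed library. Elovl6 over Elovl5 differed by -0.35 after 16 h and by -0.66 after 30 h, against 0.16 in the fed library. Thinned, these were -0.32 and -0.25, against 0.07 in the fed library, and only the value after 16 h had an interval clear of 0. Elovl5 over Elovl2 differed by -0.0963 after 30 h against 0.13 in the fed library, and by -0.12 against 0.22 when thinned, all 4 with intervals clear of 0, but with 10 bins both intervals held 0. The median depth of the Cyp2e1-rich bin was below that of the Cyp2f2-rich bin in every library (809 against 1334 UMIs after 30 h, 443 against 784 after 16 h, 250 against 587 after 8 h and 603 against 1223.5 in the fed library).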

How the results depend on the processing

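No paired analysis was possible because each group is 1 library with no replicate number. The contrast of saturated with polyunsaturated chain elongases by time kept its direction in every alternative, at -2.70 after 8 h in barcodes with 300 or more UMIs, and at -2.54 after 8 h and -3.91 after 24 h as the mean of per-barcode CPM. In UMIs per barcode Elovl5 after 8 h (-0.15) and Elovl2 after 16 h (-0.42) changed sign, and 3 elongases were over 2-fold lower and 0 higher after 8 h. The median log2 ratio of 54 panel genes after 8 h was -1.65 on that scale. After 16 h the 2 over 2-fold lower became 1 without Alb, by median-of-ratios scaling and by mean per-barcode CPM. By median-of-ratios scaling 2 were lower after 8 h, and by mean per-barcode CPM 2 after 24 h. Panel shares were not counted on these other scales, so these counts do not set the elongases apart from the panel.

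Signs of single zone ratios rest on the denominator. Without Alb in it, the log2 ratio between the ends in time order was -0.31, -0.44, -0.16, -0.30 and -0.22 for Elovl2 and -0.19, -0.32, -0.0238, -0.22 and -0.32 for Elovl5. For Elovl6 it was -0.0249 in the fed library, -0.37 after 16 h and -0.0847 after 24 h, and for Elovl1 -0.12 after 24 h. Elongases higher at the Cyp2e1-rich end were then 0, 1, 0, 0 and 0, and lower ones 2, 2, 2, 2 and 3. In UMIs per barcode the ratio was -0.57, -0.61, -0.18, -0.35 and -0.43 for Elovl2 and -0.45, -0.49, -0.0382, -0.27 and -0.52 for Elovl5. For Elovl6 it was -0.28 in the fed library, -0.38 after 16 h and -0.13 after 24 h, and for Elovl1 -0.12 in the fed library, -0.17 after 24 h and -0.20 after 30 h. Higher ones were then 0, 1, 0, 0 and 0, and lower ones 3, 2, 2, 3 and 4. Within a library, either scale moves the ratio of every panel gene between the ends by the same amount. Panel shares were not counted on these scales, so these counts do not set the elongases apart from the panel.

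Thinned to 300 UMIs, Elovl6 between the ends after 30 h was 0.15 (-0.24 to 0.54), with 0 elongases lower. Elovl6 over Elovl1 after 8 h was then -0.0233 and Elovl5 over Elovl2 -0.0504. The class contrast between the ends was then 0.34 after 24 h and 0.0232 after 30 h, and its change from 0 h was 0.65 after 8 h, 0.11 after 24 h and -0.20 after 30 h. In barcodes with 300 or more UMIs that contrast was 0.90 after 8 h. With 10 bins its change after 8 h was 0.67, and 0 elongases were lower after 30 h (Elovl6 -0.11, interval -0.41 to 0.18). With equal weight for each barcode, an alternative chosen after seeing the data, Elovl6 after 30 h was -0.29. The cause of these shifts was not tested. The squared coefficient of variation of Elovl6 beyond counting was 0.50 after 16 h and 0.95 after 24 h at 200 UMIs, 0.18 and 0.39 at 100 UMIs, and 0.52 after 24 h at 300 UMIs, so it is not read. Counts of Elovl6 itself limit its zone values most after 30 h, where its level was lowest, with 278 and 633 UMIs in the end bins.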
